A study of Bos taurus with 4 samples.

Results

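The piRNAs of 1 genomic cluster on bovine chromosome 23, at 13851174 to 14138004 in the authors' annotation, were examined in small RNA libraries of oocytes. A sequence was a member if its annotation in the deposited files named a piRNA cluster within that interval of 286831 bp. By this rule 415912 of the 2468643 distinct listed sequences (16.8%) were members. The libraries were made from bovine (Bos taurus) oocytes at the germinal vesicle stage, when the nucleus is intact and meiosis is arrested. There were 2 input libraries, made without an antibody, and 2 made from the RNA that an antibody to Tdrkh brought down (TDRKH IP). The labels give no breed, age, treatment or number of pooled oocytes, and they do not say that the libraries came from separate pools, so the spread behind each p-value may be technical. No IP with a control antibody was analysed here, so RNA bound with TDRKH and background of the precipitation cannot be told apart.

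piRNAs are small RNAs that guide PIWI proteins, which silence transposons and other targets in germ cells. Long cluster transcripts are cut into piRNAs that mostly begin with uridine, written T here, and are then trimmed at the 3′ end. In the ping-pong cycle a PIWI protein cuts a target opposite bases 10 and 11 of its guide, so that the new piRNA overlaps the guide by 10 bases and tends to carry A at position 10. TDRKH is a tudor domain protein of the mitochondrial surface that binds PIWI proteins and, in mouse and silkworm, is needed for trimming. PIWIL3 is a PIWI protein of mammalian oocytes that mouse and rat lack.

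The 10 member sequences with the highest mean level over the 4 libraries, in reads per 1000000 listed reads, are shown first. All reads of a sequence were counted. In each line the first base and the base at position 10 are in capitals.
Sequence 1: TtcttgggaAttgtgatgagggtt
Sequence 2: TtcttgggaAttgtgatgagggttg
Sequence 3: TcctataggGtgagcatgtagtgggt
Sequence 4: TtttctggaActctcttgcttttt
Sequence 5: TctttgtgaCcccatggactgtagcc
Sequence 6: TtcttgggaAttgtgatgagggt
Sequence 7: TtgtcgacaAggaattaggacctct
Sequence 8: TctttgcgaCcctgtggactgtagcc
Sequence 9: TctttgtgaCcccatggactgtagca
Sequence 10: TtttctggaActctcttgctttt
All 10 begin with T and are of 23 to 26 nt. Sequences 1, 2 and 6 are 3 lengths of the same 5′ end, as are sequences 4 and 10, and sequences 5 and 9 differ in the last base. Sequences 1, 2, 3, 6 and 7 were annotated to this locus alone. The others were repeats, annotated to between 17 loci (sequence 8) and 104 loci (sequence 5), and their reads were shared equally among those loci wherever the locus as a whole is described. Shared in this way, the 5 repeats brought 11.3 to 55.0 reads per 1000000 listed reads each to the locus on average, and the 5 others 1017 to 3505.

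The libraries differed in depth. Listed reads were 1079364 and 1354003 in the inputs and 11138905 and 11060320 in the IPs, and member sequences were 56859, 61658, 239762 and 244502. Only 14587 members were read in all 4 libraries, 315271 in the IPs only and 47374 in the inputs only, and 247684 were read once over all libraries. Counts of the members scattered more between replicates than sampling of reads gives: chi-square divided by its degrees of freedom was 3.42 for the inputs and 2.82 for the IPs. The summed level of 4 microRNAs of cumulus and granulosa cells (miR-21, miR-503, miR-424 and miR-132), the cells around the oocyte, was 236 and 283 RPM, reads per 1000000 listed reads, in the inputs and 1.26 and 2.71 RPM in the IPs, with miR-132 at 0 in both IPs. Most of the input sums was miR-21, at 199 and 227 RPM. The part of cumulus and granulosa cells in the results below was not tested.

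The locus took nearly the same share of cluster reads with and without the precipitation. Its shared reads were 117950 and 147340 in the inputs and 1332387 and 1321147 in the IPs. That was 10.9% and 10.9% of listed reads in the inputs and 12% and 11.9% in the IPs, where counting error is small (Wilson 95% interval of input 1, 10.9% to 11%). Both IPs lay above both inputs. The mean level rose from 109048 ± 325 to 119532 ± 118 RPM (SD; n = 2 for all group means below), a log2 change of 0.13 ± 0.02 (SE), with an edgeR adjusted p of 0.000177. By the same test 66.2% of the 935 cluster loci tested were higher and 4.06% lower, and their median log2 change was 0.36. With only the rows of the locus that carry no mismatch note, the other loci left as they were, its log2 change was 0.48, and without its 10 most abundant sequences 0.21. Relative to cluster reads the change was gone. The locus held 12.3% and 12.4% of cluster reads in the inputs and 12.4% and 12.3% in the IPs, and the log2 change was -0.00067. With TMM factors or DESeq2, which centre the loci on their median, it was -0.23 and -0.24. The major loci of chromosome 6 and chromosome 17 had log2 changes of 0.09 and -0.05 on the scale of listed reads, and the differences between the 3 loci were not tested.

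Within the interval most reads carried the name of the larger of its 2 named parts. The annotation held 3 overlapping names for the locus: the whole interval, a part of 51517 bp at 13852489 to 13904005, and a part of 232857 bp at 13905000 to 14137856. Sequences that carried the name of the second part and not the first held 82.8% and 82.3% of locus reads in the inputs and 81.2% and 81.7% in the IPs. Those that carried the name of the first part and not the second held 0.628% and 0.668% in the inputs and 0.712% and 0.728% in the IPs. Per kilobase, all reads with the name of the second and of the first part came to 387 ± 2.68 against 17 ± 0.772 RPM in the inputs and 419 ± 1.59 against 21.3 ± 0.134 RPM in the IPs. Another 16.6% ± 0.298 of input reads and 17.6% ± 0.402 of IP reads carried the name of the whole interval only. The names are not a strict map of position, since 13.9% ± 0.388 of input reads and 15.3% ± 0.511 of IP reads carried the name of the second part without that of the interval around it.

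The reads had the marks of primary piRNAs. In the inputs 86.9% and 87.8% of locus reads began with T, and in the IPs 87.6% and 87.2%, so the groups overlapped (exact two-sided permutation p = 1.0). The next first base was A, at 5.99% of input and 5.79% of IP reads on average. Reads of 24 to 32 nt made up 78.4% and 78.9% of the inputs and 77.0% and 75.8% of the IPs. Reads from rows with no other locus made up 93.5% ± 0.163 of the locus in the inputs and 93.5% ± 0.238 in the IPs, although 165616 of the 415912 members had several loci. That share rests on the equal division of repeat rows. Undivided, the rows of members held 192781 and 246526 reads in the inputs, against 117950 and 147340 shared reads.

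A at position 10 was less frequent in the IPs than in the inputs. It was found in 49.0% and 48.4% of input reads and in 45.6% and 45.0% of IP reads. The difference of -3.39 percentage points had an exact two-sided permutation p of 0.333, the smallest that 2 against 2 libraries allow. Among reads that began with T the share was 50.3% in inputs and 46.8% in IPs on average, and among the others 37.8% and 35.2%. How many of these reads arose by ping-pong was not tested. Over all reads the share was 35.5% in inputs and 35.2% in IPs at the chromosome 6 locus and 42.9% and 43.4% at the chromosome 17 locus. In the clusters outside these 3 loci it was 35.5% and 40.6%. The differences between loci were not tested. The level here was lower in both groups without the family of sequence 1, whose position 10 is A. That family held 9.50% and 8.89% of locus reads in the inputs and 5.40% and 4.85% in the IPs. Without it A at position 10 made up 43.5% ± 0.239 of input and 42.3% ± 0.158 of IP reads. With the 1-base copies described below also left out, the shares were 40.5% ± 0.747 and 41.9% ± 0.151, the opposite order. With only the copies left out they were 46.8% ± 0.116 and 44.9% ± 0.388. Without the families of sequences 1 and 3, copies kept, they were 46.1% ± 0.212 and 43.8% ± 0.375. The order thus turned only where the family of sequence 1 and the copies were both left out. Without that family the shares given for chromosome 17, where nothing was left out, were exceeded in the inputs with the copies kept, and not in the IPs or without the copies.

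Lengths peaked at 25 nt in every library. Reads of 25 nt made up 22% and 22.3% of the inputs and 21.6% and 21.3% of the IPs, and reads of 26 nt 20.9% and 21.0% against 20.3% and 19.6%. The mean length was 24.9 and 25 nt in the inputs and 24.9 and 24.9 nt in the IPs (exact two-sided permutation p = 0.667). Reads of 18 to 22 nt made up 12% and 11.8% of the inputs and 14.0% and 15.2% of the IPs, and reads of 25 or 26 nt 42.8% and 43.3% against 41.9% and 40.9%. Reads of 28 nt or more made up 9.70% and 10.7% against 11% and 10.8%. The groups overlapped in none of these 3 classes, and each had an exact two-sided permutation p of 0.333. At the chromosome 6 locus the share of 18 to 22 nt was 9.06% in inputs and 11.6% in IPs, and at the chromosome 17 locus 9.98% and 13.6%, and whether the gain differed between the loci was not tested.

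Of the 19 lengths from 18 to 36 nt at this locus, 9 were higher and 0 lower in the IPs by edgeR's adjusted p, where 27.4% of the 7024 combinations of locus and length tested were higher and 1.74% lower. The 9 were 18, 19, 20, 21, 22, 27, 28, 32 and 33 nt, and at an unadjusted p under 0.05 there were 10. The largest change was that of 20 nt, from 1.98% and 1.99% of locus reads to 2.54% and 2.82%, a log2 change of 0.56 ± 0.08 (edgeR adjusted p = 0.00131). Relative to the reads of the locus itself, 18 to 22 nt remained higher (all 5 lengths) and 24 nt was lower, against 10.3% and 2.08% of all combinations. Reads of 24 nt went from 16.1% and 15% to 13.3% and 13.4% of the locus. Sequence 1, which is of 24 nt, alone went from 4.47% and 4.10% to 2.05% and 1.86%, and without it 24 nt made up 11.8% ± 0.567 of input and 11.6% ± 0.162 of IP reads. Without TDRKH IP replicate 1, edgeR called 0 of the 19 lengths, with 8 at an unadjusted p under 0.05, and without TDRKH IP replicate 2 it called 0, with 10. Either omission ended nearly all calls in the whole table, with 0.0% of all combinations higher and 0.0142% lower, and the log2 change of 20 nt was 0.64 and 0.49. TMM factors set the median of all combinations, 0.47 on the scale of listed reads, near 0, and gave 0 higher and 5 lower lengths, against 0.698% and 4.3% of all combinations. DESeq2 gave 0 and 6, against 0.199% and 3.19%.

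The 2 sequences of the locus with the highest mean level in the inputs were lower in the IPs. Sequence 1 had 4887 and 4462 RPM in the inputs and 2448 and 2223 RPM in the IPs, and sequence 3 had 2363 and 2227 against 1055 and 810 RPM. Both IPs were below both inputs for each. The log2 change of sequence 1 was -1.0 ± 0.20 (edgeR adjusted p = 0.000116) and that of sequence 3 was -1.30 ± 0.21 (edgeR adjusted p = 5.04e-06). Their direction held under every scaling tried, with log2 changes of -1.69 and -1.99 under TMM factors.

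Of the other 8, 1 passed the test on the scale of listed reads. Sequence 9, a repeat at 62 loci, had 500 and 773 RPM in the inputs and 1110 and 1036 RPM in the IPs, a log2 change of 0.75 ± 0.22 (edgeR adjusted p = 0.00556), which shrank to 0.09 with TMM factors. It was not called without either TDRKH IP replicate. Sequence 2, which is sequence 1 with 1 more base, had 1832 and 2027 against 1674 and 1472 RPM, and its log2 change of -0.29 did not pass (edgeR adjusted p = 0.203). Sequence 6, which is sequence 1 less its last base, had 1339 and 1239 against 983 and 896 RPM, with a log2 change of -0.46 (edgeR adjusted p = 0.0561). Both lay lower in the IPs than in the inputs in every library. For the 5 others, sequences 4, 5, 7, 8 and 10, the libraries of the groups overlapped and the log2 change lay between -0.32 and 0.25. With TMM factors sequences 2, 4 and 6 were called lower, with log2 changes of -0.98, -0.995 and -1.15. Sequences 8 and 10 were also called lower there, at -0.53 and -0.64, but not sequences 5, 7 and 9. DESeq2 called the same sequences lower, and sequence 7 as well.

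Nearly all tested sequences that fell were near-identical to a far more abundant sequence, and the share that rose was close to that of all sequences. The filter of 10 RPM in 2 libraries passed 2448 of the 415912 members, which held 49.0% and 54.9% of locus reads in the inputs and 58.5% and 56.6% in the IPs. Of these, 1133 were higher and 250 lower in the IPs by edgeR's adjusted p, where 41.9% of all 11786 sequences tested were higher and 19.9% lower. With TMM factors the split was 161 higher and 327 lower, against 5.66% and 23.1% of all sequences, and with DESeq2 51 and 307, against 1.68% and 22.2%. Both set the median of all sequences, 0.70 on the log2 scale of listed reads, near 0. The members' median was 0.78. The filter selects by level: 575 members passed through the IPs alone, of which 456 were called higher, and 232 through the inputs alone, of which 230 were called lower. Among the 1073 that reached 10 RPM in all 4 libraries, 474 were higher and 13 lower. Without TDRKH IP replicate 1 there were 399 higher and 231 lower, against 15.3% and 18.2% of all sequences, and without TDRKH IP replicate 2 272 and 229, against 9.9% and 18.9%.

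A sequence was called a 1-base copy where it differed by 1 substitution from a listed sequence of the same length with at least 10 times its mean level. The mean was taken over inputs and IPs together, so a low level in the IPs made a sequence more likely to meet the rule. By this rule, set after the data were seen, 138235 members (33.2%) were copies. They held 28.1% and 20.9% of locus reads in the inputs and 6.94% and 7.14% in the IPs. The other major loci had similar shares, 29.6% in inputs and 8.57% in IPs on chromosome 6 and 31.0% and 9.31% on chromosome 17. Of the 250 members called lower, 239 were copies, where 1886 of the 2340 sequences called lower over all were. Of the tested copies 64.8% were lower at the locus and 80.5% over all sequences. The 369 copies tested summed to 18.3% and 13.8% of the reads of their 104 more abundant sequences in the inputs and to 7.34% and 8.38% in the IPs. The origin of the copies was not tested.

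The 5 members that fell most were all such copies, each T to C. They are printed below the sequence they match, with the substituted base in capitals and positions counted from 1 at the 5′ end.
More abundant than copy 1: ttccttcaggtcagtgTctcccaa
Copy 1, T17C: ttccttcaggtcagtgCctcccaa
More abundant than copy 2: tgtgagatgagtgcaattgTgtggta
Copy 2, T20C: tgtgagatgagtgcaattgCgtggta
More abundant than copy 3: Tcctatagggtgagcatgtag
Copy 3, T1C: Ccctatagggtgagcatgtag
More abundant than copy 4: tgTgagatgagtgcaattgtgtggta
Copy 4, T3C: tgCgagatgagtgcaattgtgtggta
More abundant than copy 5: ttccggTttattgtgatccacagtca
Copy 5, T7C: ttccggCttattgtgatccacagtca
Copy 1 had 18.5 and 10.3 RPM in the inputs and 0.539 and 0.633 RPM in the IPs, a log2 change of -4.54 ± 0.42. Copy 5 had 17.6 and 19.2 against 0.898 and 0.995 RPM, a log2 change of -4.26 ± 0.40. All 5 reached 10 RPM in the inputs alone and were chosen for their fall, so their changes are a description. They had both IPs below both inputs and mean levels between 1.86% and 2.29% of the sequence they match. Copies 2 and 4 match the same sequence and were both annotated to 22 loci.

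With copies set aside from the calls of the main fit, 2079 tested members remained. Of these 1082 were higher and 11 lower, where 50.9% and 4.81% of all 9443 such sequences were. The share called higher was thus close to that of all sequences. A new fit, with copies left out of counts, filter and library sizes, called fewer: 546 higher and 23 lower of 2318 members. Over all sequences that fit called 2426 higher and 644 lower of 10625. In the main fit the share called higher was largest among the short reads. Of 384 sequences of 18 to 22 nt, 246 were higher and 0 lower. Of 870 of 25 or 26 nt, 419 were higher and 2 lower. Sequences of this locus alone were higher in 506 of 1033 cases, and those with several loci in 576 of 1046. Both comparisons are descriptions and were not tested, and the filter bears on each of them. The shares of all sequences in the same length and locus classes were not counted, so neither comparison shows a trait of this locus.

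The 5 members that rose most were rare in the inputs. They reached 10 RPM in the IPs alone and were chosen for their rise, so their ratios are a description. The first base and the base at position 10 are in capitals.
Gained 1: TagtagaacAgtaaacaagatgaca
Gained 2: TcatttgaaAagaccctgatg
Gained 3: TtaaatacaCaggaaggctcagacca
Gained 4: TgaacctggActggcgactcattt
Gained 5: TtctaactgTtgcttcctgacttg
Gained 3 had 0 and 3 reads in the inputs and 312 and 271 in the IPs, a ratio of pooled RPM of 21.3 (exact 95% counting interval, 7.25 to 104). Gained 1 had 0 and 1 read against 133 and 176, a ratio of 33.9 (6.03 to 1342). Both were annotated to this locus alone. The ratios of gained 2, 4 and 5, repeats at 137, 6 and 91 loci, were 26.7, 15 and 14.4 on 1 or 2 input reads. The intervals cover counting error only. Among sequences of more than 100 RPM, chosen after their values were seen, the 26-nt TctttgcgaCcctgtggactgtagca had 371 and 381 RPM in the inputs and 622 and 574 RPM in the IPs, and the 22-nt TctctctgcAtagctccttgtt had 280 and 358 against 486 and 436 RPM.

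Sequences with the same first 18 bases were joined into 5′ families, which hold the 3′ ends found with the same 5′ sequence. Families of repeats also join sequences of different loci that differ in the bases after the first 18. The members fell into 138700 families, and few of them held most reads. The top 10 families held 27.7% and 29.9% of locus reads in the inputs and 24.5% and 22.8% in the IPs. The top 1000 held 66.6% and 70.8% against 73.7% and 72.5%. The leading 10 thus took a smaller share in both IPs than in both inputs, and the leading 1000 a larger one.

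The test covered 2026 families of the locus, of which 774 were higher and 391 lower, where 35.3% and 24.4% of all 10400 families tested were. TMM factors gave 192 and 426, against 8.21% and 26.4% of all families, and DESeq2 91 and 401, against 3.68% and 25.3%. Of the 391 lower families 384 were 1-base copies of a more abundant family. Over all families 494 of the 2540 lower ones were no copies. Of the 1515 families of the locus that were no copies, 739 were higher and 7 lower, against 44.9% and 6.27% of all 7880 such families. Among these 1515 families 315 passed the filter through the IPs alone, and 392 of the 771 that reached 10 RPM in all 4 libraries were higher and 4 lower. The new fit without copies called 435 higher and 12 lower of 1699 families of the locus. Over all families it called 2128 higher and 665 lower of 8879. Without TDRKH IP replicate 1 there were 354 higher and 363 lower of the 2026, against 15.7% and 22.8% of all families, and without TDRKH IP replicate 2 257 and 359, against 11.2% and 23%.

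The most abundant family, that of sequence 1, had 11410 and 10622 RPM in the inputs and 8198 and 7160 RPM in the IPs. Its log2 change was -0.52 ± 0.15 (edgeR adjusted p = 0.00496), and it was not called without TDRKH IP replicate 2. Members of the locus made up 83.1% of its reads. Its 4 main 3′ ends follow, with the bases after the shared 18 in capitals.
22 nt: ttcttgggaattgtgatgAGGG
23 nt: ttcttgggaattgtgatgAGGGT
24 nt: ttcttgggaattgtgatgAGGGTT
25 nt: ttcttgggaattgtgatgAGGGTTG
Reads of 24 nt made up 50.3% and 48.1% of the family in the inputs and 33.1% and 34.9% in the IPs. Reads of 25 nt went from 20.5% and 23.4% to 24.3% and 25%, and reads of 22 nt from 3.51% and 3.35% to 6.50% and 5.92%. Reads of 23 nt stayed between 14.7% and 15.8% in all 4 libraries. Among these 4 forms the fall was thus largest in the main form, and shares of a family are not independent of each other. Some rarer longer sequences of the family were also called lower, and they are named here for that reason. The one of 27 nt had 34.3 and 29.5 against 13.6 and 14.1 RPM, a log2 change of -1.20 ± 0.33. The one of 29 nt had a log2 change of -0.93 ± 0.37.

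The family of sequence 3, annotated to this locus alone, showed a similar picture. It had 5562 and 5693 RPM in the inputs and 4231 and 3502 RPM in the IPs, a log2 change of -0.54 ± 0.15 (edgeR adjusted p = 0.00507) that was not called without TDRKH IP replicate 2. Its main 3′ ends were these.
20 nt: tcctatagggtgagcatgTA
21 nt: tcctatagggtgagcatgTAG
22 nt: tcctatagggtgagcatgTAGT
23 nt: tcctatagggtgagcatgTAGTG
25 nt: tcctatagggtgagcatgTAGTGGG
26 nt: tcctatagggtgagcatgTAGTGGGT
27 nt: tcctatagggtgagcatgTAGTGGGTT
The 26-nt form fell from 58.1% and 53.8% of the family to 35.9% and 32.9%. The 23-nt form went from 11.7% and 12.3% to 16.3% and 18.3%, and the 20-nt form from 2.38% and 3.09% to 6.76% and 7.67%. In RPM the 20-nt sequence was higher in the IPs, at 125 and 171 against 284 and 266, while the 26-nt sequence was lower. The mean length of the family was 25.1 and 24.9 nt in the inputs and 24.1 and 23.9 nt in the IPs.

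Of the other 4 leading families, 2 held repeats and were called higher. TctttgcgaCcctgtgga had 6794 and 7999 RPM in the inputs and 10053 and 9351 RPM in the IPs, a log2 change of 0.39 ± 0.15 (edgeR adjusted p = 0.0291), which turned to -0.12 with TMM factors and -0.10 with DESeq2. It was not called relative to cluster reads, nor without input replicate 1, TDRKH IP replicate 1 or TDRKH IP replicate 2. TctttgtgaCcccatgga had 4909 and 6690 against 8734 and 8124 RPM, a log2 change of 0.54 ± 0.16 (edgeR adjusted p = 0.0071), which was 0.03 with TMM factors, and it was not called without TDRKH IP replicate 1. Reads of members made up 51.0% and 58.8% of these families, and rows of this locus alone only 1.30% and 0.00149%.

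Neither of the remaining leading families passed the test on the scale of listed reads. TtttctggaActctcttg, a repeat, had 3916 and 4967 against 4577 and 4231 RPM, and TctctctgcAtagctcct, of this locus alone, 3342 and 3984 against 3889 and 3431 RPM. Both had log2 changes within 0.02 of 0 on the scale of listed reads. With TMM factors these were -0.53 and -0.52, and both families were called lower (edgeR adjusted p = 0.00919 and 0.0109). DESeq2 also called both lower, while neither was called relative to cluster reads. Their main forms were nonetheless a smaller share of the family in the IPs. In TtttctggaActctcttg the 24-nt form was 36.3% and 38.1% in the inputs and 29.1% and 27.9% in the IPs. In TctctctgcAtagctcct the 26-nt form was 26.6% and 24.9% against 18.6% and 17.4%.

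Mean length was lower in both IPs than in both inputs in 544 of the 1515 families that were no copies, where 34.1% of all such families had that order, and higher in 183, against 13.6%. Among families of at least 100 RPM these counts were 107 and 14 of 180 at the locus and 448 and 61 of 799 over all families. The shift was small, with a median difference of -0.14 nt over the 1515 families, and 1059 of them had the same most frequent length in both groups. That length was 25 nt in 427 families and 26 nt in 419 in the inputs, and 471 and 437 in the IPs.

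The 4 families that rose most each had 2 input reads in all. TgcaaagagTgggacaca had 0 and 2 reads in the inputs and 163 and 182 in the IPs, a ratio of pooled RPM of 18.9 (exact 95% counting interval, 5.19 to 157). The ratios of TctgtagtcTggggagag, AtggtaaagGgagctaga and TcataagggTtaaggagt were 15.4, 15.1 and 13.9. All 4 reached 10 RPM in the IPs alone. The 4 that fell most, which reached it in the inputs alone, were copies of more abundant families: T11C in ttccggtttaCtgtgatc, A15G in tggtaaagggagccGgaa, C12A in ttccttcaggtAagtgtc and T15C in ttccttcaggtcagCgtc. The third had the most reads, 69.5 and 53.9 RPM in the inputs and 5.12 and 2.98 RPM in the IPs, a log2 change of -3.91 ± 0.35. The values of these 8 families are a description.

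Many reads differed by a noted base from the annotation. Among the 250296 members of this locus alone, reads with no mismatch note made up 60.0% and 67.4% in the inputs and 81.2% and 80.4% in the IPs. The gap lay in the copies: noted reads that were 1-base copies made up 23.6% and 17.1% against 3.86% and 4.0%, and noted reads that were not made up 16.4% and 15.5% against 15% and 15.6%. None of the notes was on the last 2 bases.

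Some noted bases took a large share of their family and its annotated partner. Examples, chosen after their values were seen, are printed with the annotated base first.
G17A, annotated: ttgtcgacaaggaattGg
G17A, noted: ttgtcgacaaggaattAg
C14T, annotated: tggtaaagggagcCagaa
C14T, noted: tggtaaagggagcTagaa
T3G, annotated: ttTgagcaaactctggca
T3G, noted: ttGgagcaaactctggca
The family noted G17A, which holds sequence 7, made up 59.5% and 67.2% of the pair in the inputs and 66.8% and 69.0% in the IPs, so that the groups overlapped. The family noted C14T made up 20.5% and 23.1% of its pair in the inputs and 31.3% and 35.2% in the IPs, and the family noted T3G 15.5% and 17.7% against 20.3% and 21.3%. In these 2 pairs both IPs lay above both inputs, as in G16A, the G17A pair begun 1 base later. In the other pairs examined, noted G6A, C4A, A17G, C13T and A14G, the groups overlapped. The family AtggtaaagGgagctaga, among the 4 that rose most, is the noted C14T family begun 1 base earlier. The origin of these pairs was not tested.

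Pairs of piRNAs with a 10-base 5′ overlap were few. Among the 1001 families that were no copies and lay mostly at this locus alone, 26 ordered pairs overlapped by 10 bases, against 20 by 9 bases, 45 by 8 and 0 by 11. Per 1000000 possible pairs this was 25.9 at 10 bases and 19.96 at 9. Between these families and those of other chromosomes, which cannot pair by position, the values at 10 bases were 10.03 (chromosome 6) and 23.9 (chromosome 17). Left in, the copies raised the count at 10 bases to 76. Both partners were above 1000 RPM only in the G17A pair, whose first 10 bases are their own reverse complement.
Annotated, overlap in capitals: TTGTCGACAAggaattgg
Noted, overlap in capitals: TTGTCGACAAggaattag
Each therefore counts as the partner of the other and of itself, within the 26 ordered pairs. A family cannot pair with itself at 9 or 11 bases, nor in the values against other chromosomes. The noted family had 1618 and 2375 RPM in the inputs and 2660 and 2965 RPM in the IPs, a log2 change of 0.49 ± 0.18 (edgeR adjusted p = 0.0204), and the annotated one 1100 and 1162 against 1323 and 1329 RPM (edgeR adjusted p = 0.216). A looser measure, an 18-base stretch whose reverse complement occurs in another member, held for 16.6% and 17.5% of input and 20.1% and 20.2% of IP reads (exact two-sided permutation p = 0.333, the smallest possible). With members of this locus alone it held for 8.54% and 11.1% on average.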

How the data were processed

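The labels' protocols name TRIZOL for the RNA, a NEXTflex small RNA kit for the libraries and single-end reads. The deposited files hold read counts per distinct sequence of 18 to 36 nt with the names given by unitas. The tool's settings were not given in the sources used here, nor was the genome build behind the cluster positions, and sequences were not placed on a genome. The unannotated part of each library was not analysed here.

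Overlapping cluster names (1159) were merged into 956 loci, and counts of a row were shared equally among its loci, while single sequences and families keep all their reads. The quasi-likelihood test of edgeR 4.0.16 was run under R 4.3.3, with listed reads as library size, on loci (filterByExpr), sequences and 18-base families with at least 10 RPM in 2 libraries, and locus-length combinations with at least 100 reads, Benjamini-Hochberg adjusted over each whole table, with a threshold of 0.05. The test was also run on simulated counts with a fixed spread and no overall shift between groups, so that run does not show its error rate here. A family belonged to the locus if over 50% of its reads were members'. The standard error was approximated from the F statistic. Counts include PCR copies, so intervals cover counting error only. Shares were compared by exact permutation tests. Alternatives included DESeq2 1.42.0. Members and lists were chosen with earlier results of these data known. Named were the 10 sequences and 6 families with the highest mean RPM, and in each direction the 5 sequences and 4 families with the largest called change and with no overlap between inputs and IPs. Forms are lengths with at least 5% of a family's reads.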

Additional observations from a re-analysis of the deposited data

How the results depend on the processing

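The direction of the locus depended on the scale, with a log2 change of -0.00067 relative to cluster reads, -0.23 with TMM factors and -0.24 with DESeq2. With each distinct sequence counted once it was 0.079 and not called. With rows without a mismatch note it was 0.48, without the 10 most abundant sequences 0.21, and leaving out a library 0.129 to 0.135. The choice of rows without a mismatch note dropped noted rows of this locus only and kept the library sizes. Among members of this locus alone, noted reads were 36.3% of input and 19.2% of IP reads on average. That choice therefore moves the locus and its lengths up by its construction. Called sequences numbered 1383, and 488 with TMM factors, 358 with DESeq2, 663 with single-locus rows, 653 with rows without a mismatch note, 569 without 1-base copies, and 501 to 1405 leaving out a library. Called families numbered 1165, and in the same order 618, 492, 656, 558, 447 and 616 to 1208. Called lengths numbered 9, and 5 with TMM factors, 17 with rows without a mismatch note and 0 to 10 leaving out a library. With no filter edgeR called 0 sequences, 0 families and 0 lengths, while at p under 0.05 before adjustment there were 13380, 6332 and 9, and DESeq2 on the filtered tables called 358, 492 and 6. Fewer features in a table also follow from the row choices. The cause of the remaining shifts was not tested.

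The difference in first T, 0.0159 percentage points, was -8.79 with distinct sequences, -0.0339 with single-locus rows, -1.98 without noted rows, -0.0417 without 1-base copies and -0.412 to 0.444 leaving out a library. That in the single-locus share, -0.0584, was 0.814 with distinct sequences, 0.309 without the 10 most abundant sequences and -0.227 to 0.110 leaving out a library. The differences in mean length, A at position 10 and antisense share kept their sign in all 9 alternatives each, but that in A at position 10 turned when the most abundant family and the 1-base copies were both left out.

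With TMM factors and DESeq2, sequence 8 had log2 changes of -0.53 and -0.51, sequence 10 -0.64 and -0.61 and the family TctttgcgaCcctgtgga -0.12 and -0.10; sequence 7 had -0.48 with DESeq2. Lengths of 21, 22, 27, 28 and 32 nt had -0.082, -0.124, -0.204, -0.149 and -0.011 with TMM factors and -0.095, -0.137, -0.216, -0.162 and -0.025 with DESeq2, and 18 nt had -0.0047 with DESeq2.

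Replicate numbers are shared by the groups, but with 2 pairs they do not show a pairing (correlation of deviations 0.101 over 1565 sequences). With the replicate block the log2 change of the locus was 0.13, and 1262 sequences, 1077 families and 8 lengths were called. The 1-base copies were left out as an alternative chosen after seeing the data. The inputs were the shallower libraries, so their depth limits what can be said of rare sequences.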

Other observations

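Of the 11 members called lower that were no 1-base copies, those with the largest falls were not among the leading families. They were chosen after their values were seen and are given as values; they reached 10 RPM in the inputs alone. TgaggctgcAgcctgagagagtt had 38.9 and 29.5 RPM in the inputs and 3.41 and 4.07 RPM in the IPs, a log2 change of -3.18 ± 0.37. TgaagctgcGgcctgagagagtt had 23.2 and 18.5 against 2.42 and 2.35 RPM, and TgaagctgcAgcctgagagggtt 18.5 and 17 against 2.24 and 3.25 RPM. All 3 are of 23 nt and carried a mismatch note. The family TgaagctgcAgcctgaga, with which the third shares its first 18 bases, went the other way, from 778 and 886 to 1212 and 1187 RPM (log2 change 0.53, edgeR adjusted p = 0.00988). The first 18 bases of the first and the second each differ from that family's by 1 substitution. All 3 are thus near-identical to sequences of a more abundant family, as the copies are. None met the rule for a 1-base copy, with its limit of 10 times the mean level. The family TaaaacctcActtaccaa had 64.9 and 41.4 RPM in the inputs and 7.81 and 5.79 RPM in the IPs, a log2 change of -2.95 ± 0.34.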
